A study of Mus musculus with 4 samples.

Results

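Trim33 (also called TIF1-gamma) is a chromatin-associated ubiquitin ligase of the tripartite motif family that reads histone H3 tails and works with, or against, SMAD proteins in TGF-beta signalling. The 1339 regions described here are the wide Trim33 peaks of moderate enrichment in T helper 17 (Th17) cells, a lineage of CD4 T cells named for its cytokine IL-17. They are the peaks on chromosomes 1 to 19 with a width of 500 bp or more and a deposited fold enrichment below 15. They make up 5.03% of the 26631 autosomal peaks and come from a list of 27050 peaks in all. The members were chosen by width and fold, so both are given as a description without a test, and so is the q value at the summit, which comes from the same calling.

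The chromatin came from primary Th17 cells, grown from naive CD4+ T cells of spleen and lymph nodes of C57BL/6 mice. The cultures, made in RPMI medium with 10% FCS on plates coated with anti-CD3 and CD28, held IL-6 and TGF-b together with antibodies that block IL-4 and IFN-g. All 4 libraries share this background: 2 are ChIP with a Trim33 antibody (Bethyl, A301-060A) and 2 are input DNA with no antibody. The deposited peak list is 1 list called on merged replicates, so no value below has an error between cultures, and the depth of the libraries is unknown here. No condition was compared in this series, and the labels do not say how many mice were used.

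A peak is a stretch of the genome where ChIP reads pile up beyond the background, and its summit is the base with the highest signal. Fold enrichment is the signal at the summit over that background. The width is the length of the region that the peak caller reported, and whether nearby stretches of signal were joined into 1 region is not known here. Gene starts rich in CpG dinucleotides (CpG islands) are known as wide stretches of open chromatin used by broadly active genes, while enhancers far from genes are known as the sites where lineage-determining factors act in T cells.

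Promoter sequence is shown first, because gene starts held a larger share of the members than of the other sets described below, and the promoters under members were rich in CpG. The first 5 are the promoters covered in full by the 5 widest such members. The sixth, Ctla2b, was chosen after its value was seen as the fully covered promoter with the lowest CpG content, to show the other end of the range. Each run gives the 250 bases before an annotated start, 5′ to 3′ on the strand of the gene, from RefSeq (GRCm38.p6, the assembly of mm10), with every CG dinucleotide in capitals.
Ube2d3 (chr3:135438066-135438315, plus strand): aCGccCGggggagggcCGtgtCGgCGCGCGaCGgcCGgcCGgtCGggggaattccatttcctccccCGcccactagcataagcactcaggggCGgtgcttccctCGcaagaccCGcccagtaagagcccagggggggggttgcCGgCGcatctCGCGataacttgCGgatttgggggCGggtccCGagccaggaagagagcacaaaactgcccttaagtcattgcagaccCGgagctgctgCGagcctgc
Msl2 (chr9:101073804-101074053, plus strand): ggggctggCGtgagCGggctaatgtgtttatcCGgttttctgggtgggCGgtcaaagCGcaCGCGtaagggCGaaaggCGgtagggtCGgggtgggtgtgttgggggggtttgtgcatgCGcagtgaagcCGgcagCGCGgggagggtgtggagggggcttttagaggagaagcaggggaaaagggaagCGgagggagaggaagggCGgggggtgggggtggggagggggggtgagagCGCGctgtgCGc
Zfand5 (chr19:21272028-21272277, plus strand): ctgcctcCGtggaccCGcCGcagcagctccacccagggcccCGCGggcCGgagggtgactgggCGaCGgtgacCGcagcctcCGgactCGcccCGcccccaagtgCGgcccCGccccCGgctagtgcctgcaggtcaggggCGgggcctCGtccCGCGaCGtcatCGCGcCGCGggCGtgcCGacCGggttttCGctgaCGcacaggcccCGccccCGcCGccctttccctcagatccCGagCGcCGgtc
Dipk2a (chr9:94538082-94538331, minus strand): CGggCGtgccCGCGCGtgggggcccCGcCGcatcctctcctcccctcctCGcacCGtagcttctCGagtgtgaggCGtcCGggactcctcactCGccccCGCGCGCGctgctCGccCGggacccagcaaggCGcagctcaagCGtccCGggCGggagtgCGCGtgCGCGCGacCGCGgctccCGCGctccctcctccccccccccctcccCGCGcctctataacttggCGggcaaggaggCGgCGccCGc
Aff1 (chr5:103753912-103754161, plus strand): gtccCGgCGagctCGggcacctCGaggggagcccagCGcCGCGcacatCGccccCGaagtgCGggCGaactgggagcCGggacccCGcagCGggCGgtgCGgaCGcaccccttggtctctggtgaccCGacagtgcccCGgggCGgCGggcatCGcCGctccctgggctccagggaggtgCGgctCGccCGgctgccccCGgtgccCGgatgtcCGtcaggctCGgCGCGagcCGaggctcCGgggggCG
Ctla2b (chr13:60897448-60897697, minus strand): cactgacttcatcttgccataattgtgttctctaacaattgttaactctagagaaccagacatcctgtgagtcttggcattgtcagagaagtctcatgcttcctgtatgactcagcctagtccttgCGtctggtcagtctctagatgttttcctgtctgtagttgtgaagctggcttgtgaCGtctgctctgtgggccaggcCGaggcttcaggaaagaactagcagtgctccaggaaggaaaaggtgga

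These 250 bases held 24 CG dinucleotides at Ube2d3, 19 at Msl2, 35 at Zfand5, 38 at Dipk2a and 35 at Aff1, against 3 at Ctla2b. Their G and C content was 67.6%, 67.2%, 78.0%, 77.6% and 78.8%, against 48.0% at Ctla2b. Ube2d3 encodes a ubiquitin-conjugating enzyme, and its member was 1609 bp wide with 7.98-fold enrichment. Msl2, a subunit of a histone H4 acetylation complex, had a 1498 bp member of 10.8-fold. The members at Zfand5 (1278 bp, 6.16-fold), Dipk2a (1239 bp, 12.9-fold) and Aff1 (1188 bp, 7.44-fold), a gene of the transcription elongation machinery, were also over 1 kb. Ctla2b, a cysteine protease inhibitor first found in activated T cells, had a 760 bp member of 8.61-fold over a promoter with almost no CpG.

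Members were 500 to 3668 bp wide with a median of 591 bp (quartiles 537 and 686 bp), against a median of 227 bp over all autosomal peaks. Of the members, 696 were under 600 bp, 338 from 600 to below 700 bp, 271 from 700 bp to below 1 kb and 34 were 1 kb or wider. The median fold of the members was 8.07 (quartiles 6.35 and 10.3), the lowest 2.09 and the highest 14.9. The term moderate refers to the bound of 15: the lower quartile of the members lay above the median of all autosomal peaks, 6.00. The median −log10 q at the summit was 20.8 in members and 11.2 over all autosomal peaks. Members covered 0.855 Mb, which is 12.1% of the length of all autosomal peaks.

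**Figure D1:**
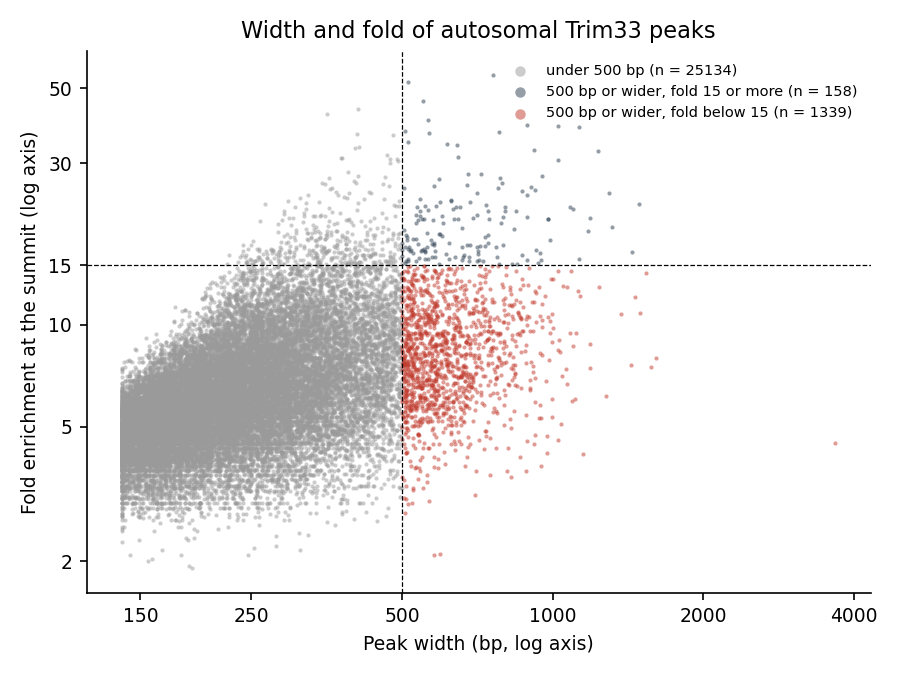
Width (x axis, bp) against fold enrichment at the summit (y axis), both on log axes, for all 26631 autosomal peaks. Each point is a peak, red points are the 1339 members, and dashed lines mark 500 bp and 15-fold. The members span most of the fold range below 15, and 1 member at 3668 bp stands far to the right of the others.

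Values ran on across both bounds. The last wide peaks inside the fold bound had 14.92, 14.93 and 14.94-fold enrichment and the first outside it 15.07, 15.09 and 15.09. Among peaks below 15-fold, 8 were 499 bp wide with a median fold of 7.31, and 9 were 500 bp wide with a median of 10.1.

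Members lay at gene ends more often than the other sets. Of 1339 members, 697 had the summit no more than 1000 bp away from an end of a protein-coding gene (52.1%, exact 95% binomial interval 49.3 to 54.8%), beside a background of 27.6% over all autosomal peaks. Peaks under 500 bp with a fold between the quartiles of the members were taken as the closest narrow peaks, and 24.5% of these 8349 peaks lay at a gene end (23.6 to 25.4%). Peaks of 500 bp or more with a fold of 15 or more, called strong wide peaks below, had 35 of 158 at a gene end (22.2%, 15.9 to 29.4%). The interval of the members overlapped none of these. The intervals cover counting error only, and neighbouring peaks are not independent. No test was made, since peaks of 1 list are not replicates.

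The other places held correspondingly fewer members. Gene bodies away from the ends held 338 (25.2%), against 39.2% of the narrow peaks of like fold and 42.4% of the strong wide peaks. Outside genes but within 10 kb lay 86 members (6.42%), against 10.6% and 8.86%. Farther than 10 kb from any protein-coding gene lay 218 members (16.3%), against 25.7% and 26.6%. These shares add up with the gene ends to 1 total and are therefore not separate results. Within the members, those at gene ends had a median width of 612 bp and a median fold of 7.66, and those farther than 10 kb from genes had 574 bp and 8.71.

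**Figure D2:**
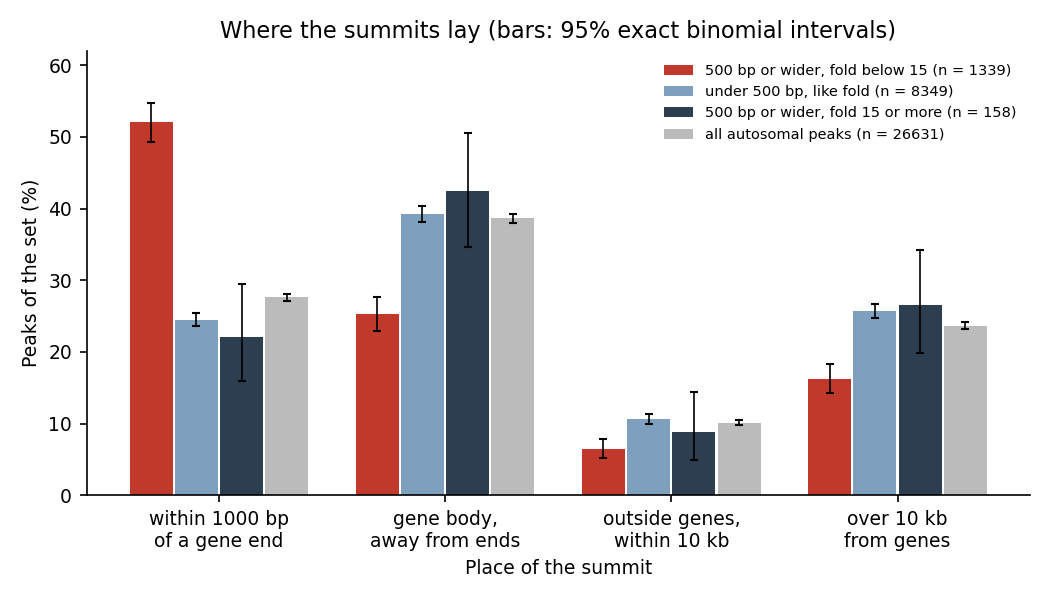
Share of peaks (y axis, %) with a summit in each of 4 places (x axis), for members and for 3 sets set beside them. Bars are shares and lines are exact 95% binomial intervals. Members stand highest at gene ends, at 52.1%, and lowest in the other 3 places.

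The gene-end share was higher in wider peaks, up to about 700 bp, and lower at folds above 8. Among peaks below 15-fold it was 21.2% under 200 bp, 25.7% from 200 bp, 34.5% from 300 bp and 45.1% from 400 bp to below 500 bp. Within the members it was 45.1% from 500 bp, 59.2% from 600 bp, 60.2% from 700 bp to below 1 kb and 58.8% (20 of 34) at 1 kb or more. The change was thus gradual and did not start at 500 bp. By fold, the share in members was 59.0% below 6, 60.4% at 6 to 8, 48.7% at 8 to 10, 45.2% at 10 to 12 and 35.8% at 12 to 15. Strong wide peaks carried this on, with 34.9% at 15 to 20 and 6.94% (5 of 72) at 20 or more. Narrow peaks had 28.8% below 6-fold and 18.3% at 12 to 15, so in each of these fold bins below 15 the wide peaks had the higher share. At 20-fold or more the wide peaks (6.94%) and the narrow peaks (6.49%) had overlapping intervals.

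**Figure D3:**
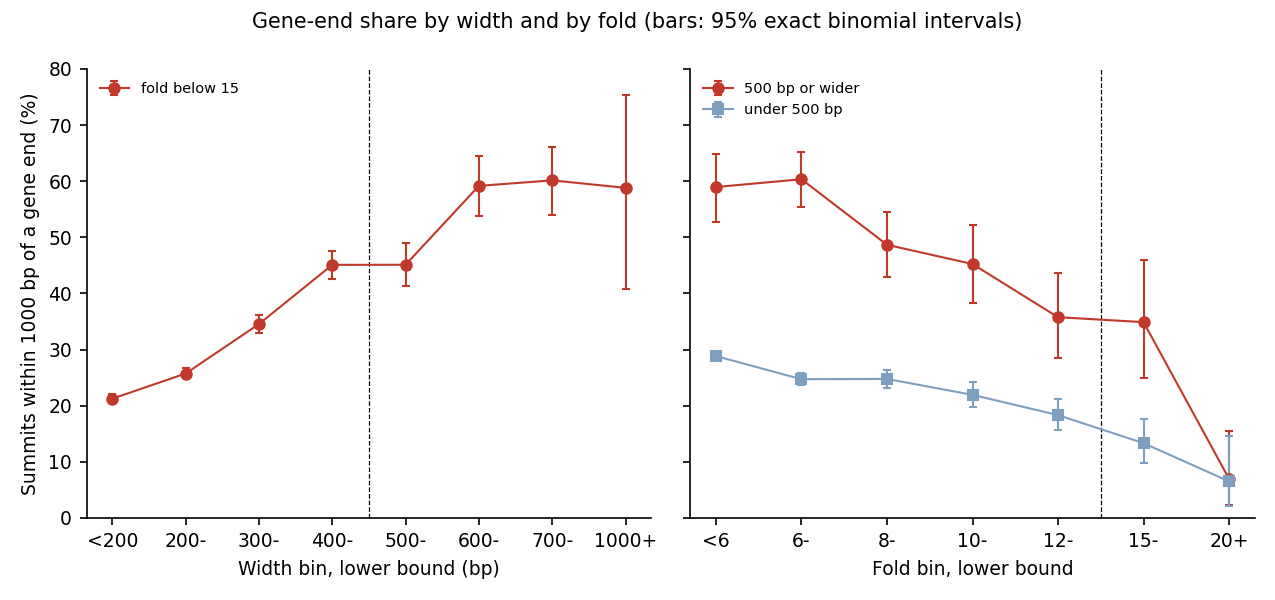
Share of summits within 1000 bp of a gene end (y axis, %) by width for peaks below 15-fold (left) and by fold for peaks of 500 bp or more and under 500 bp (right). Lines are exact 95% binomial intervals, and dashed lines mark the bounds of 500 bp and 15-fold. The share is 21.2% in the narrowest and 60.2% from 700 bp to below 1 kb, and among wide peaks it is 60.4% at 6 to 8-fold and 6.94% at 20-fold or more.

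Annotated starts were counted separately from gene ends. RefSeq promoter entries gave a start and strand for 16457 of 20665 autosomal protein-coding genes (79.6%), with none on chromosome 18, so 1284 members could be placed. Of these, 632 (49.2%, 46.5 to 52.0%) had a summit within 1000 bp of an annotated start, beside a background of 25.0% over all autosomal peaks on these chromosomes. Within 250 bp lay 466 (36.3%), against 17.3% of the narrow peaks of like fold and 13.3% of the strong wide peaks. Within 100 bp lay 296 (23.1%), against 13.0% and 6.67%. Genes without an entry make these shares minimum values.

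At these starts the summit lay before the start in 435 of 632 members (68.8%), with a median position 56 bp upstream (quartiles 153 bp upstream and 27 bp downstream). The narrow peaks of like fold had 67.8% before the start and a median of 40 bp upstream, so the summits of both sets sat at about the same place. By the choice of members on width, they reached farther on both sides, with a median edge 347 bp upstream and 295 bp downstream of the start, against 176 bp and 109 bp. A member covered the start itself in 574 of 632 cases (90.8%), against 72.1% of the narrow peaks. Reach and cover of the start depend on width, by which the members were chosen, and are given as a description. Pairs of genes that run away from each other, both with a start within 1000 bp of the summit, were found at 56 of the 632 (8.86%) and at 8.85% of the narrow peaks, so such divergent promoters were no more common among members.

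The summit of a member lay off centre more often than in the strong wide and the narrow peaks. Its distance to the nearer edge had a median of 185 bp and to the farther edge 413 bp, against 105 and 136 bp in the narrow peaks of like fold and 229 and 420 bp in the strong wide peaks. It lay in the outermost 25% of the region on either side in 461 members (34.4%), in 18.4% of the strong wide peaks and in 2.92% of the narrow peaks. The outer parts of both sides together are as long as the middle part, which held the summit in most members. These distances and shares depend on width, by which the members were chosen, and are given as a description. The side of the longer arm showed little preference: at starts it pointed into the gene in 348 of 632 members (55.1%, 51.1 to 59.0%), and in 56.0% of the narrow peaks.

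The promoters under the members were the richest in CpG of the sets with large numbers. A promoter is here the 300 bp from 250 bp before to 50 bp after an annotated start. Members overlapped 745 promoters of 658 genes, with a median G and C content of 68.0% (quartiles 62.7 and 74.0%). Promoters overlapped by narrower peaks alone had a median of 63.7% (58.0 and 69.3%), and promoters with no peak 53.3% (45.7 and 61.0%). The observed number of CG dinucleotides over the number that the base content gives had a median of 0.898 under members, 0.841 under narrower peaks and 0.367 with no peak. Promoters with at least 55% G and C and a ratio of at least 0.65 made up 85.0% (82.2 to 87.5%), 74.5% (73.3 to 75.7%) and 23.8% of these sets. Among the 421 promoters covered in full by a member the share was 90.5%. Under strong wide peaks it was 80.8% of only 26 promoters. Base content thus differed between these sets, but the narrower peaks were of any fold, so the sets differed in fold as well as width. The part of base content in the width of the peaks was not tested.

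**Figure D4:**
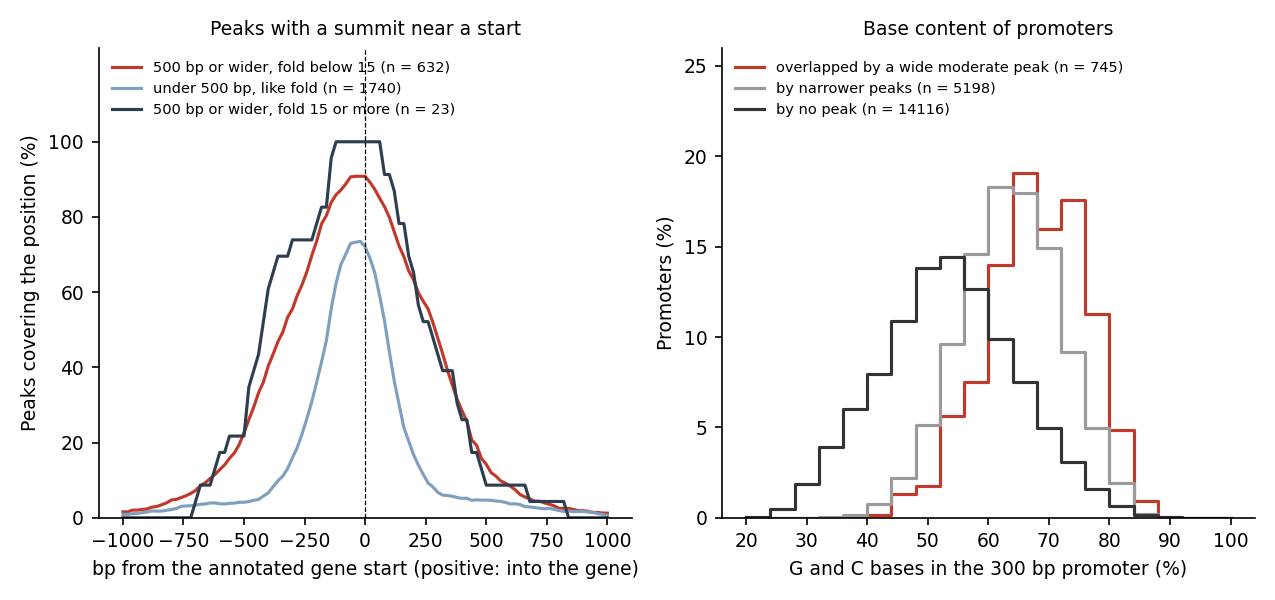
Left, share of peaks that cover each position around an annotated start (x axis, bp, positive into the gene), for peaks with a summit within 1000 bp of the start. Right, distribution of G and C content (x axis, %) over promoters overlapped by a member, by narrower peaks alone or by no peak. Members, chosen by width, extend farther on both sides than narrow peaks of like fold, and their promoters have a median of 68.0% G and C.

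Short motifs were searched on both strands of the promoters, as a description of letters and not of bound sites. The letters CCGGAA, the core of ETS factor sites, were in 31.7% of promoters under members, 37.0% under narrower peaks and 19.1% of all 20085 promoters. GCGCNNGCGC, for the factor NRF1, was in 20.9%, 17.6% and 8.83%. TGACGTCA (CRE, bound by CREB and ATF factors) was in 4.16%, 4.39% and 2.30%, and AAGATGGCG (YY1) in 3.22%, 3.85% and 1.83%. These CG-holding letters were thus more frequent than over all promoters under wide and narrow peaks alike.

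The letters searched for AP-1, SMAD and RUNX factors were less frequent than over all promoters, under members and narrower peaks alike. Those for ETS factors, which lymphocytes also use, were not. TGANTCA (AP-1) was in 4.30% of promoters under members, 4.43% under narrower peaks and 7.06% of all. CAGACA (SMAD) was in 10.6%, 14.2% and 18.6%, and ACCACA (RUNX) in 9.40%, 11.4% and 14.8%. CCAAT was in 27.5%, 34.0% and 38.1%, and CANNTG (E-box) in 53.4%, 59.85% and 68.7%. CCANNAGNNGGC (part of the CTCF site) was in 2.42%, 3.58% and 2.40%. Matches of different motifs can overlap each other. Base content differed between the sets as given above, and its part in these shares was not tested.

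Genes were then counted by locus, defined as its annotated body extended by 10 kb at both ends. A member lay in the locus of 1442 of 20665 autosomal protein-coding genes, a background of 6.98%, while any peak lay in 55.9%. Most of these genes, 1373, had 1 member, 61 had 2, 5 had 3 and 3 had 4. Of the 1339 members, 799 lay in 1 locus, 322 in more than 1 and 218 in none. A member in a locus is therefore not assigned to that gene. The 13 gene lists were described by their counts beside this background, without a test. In the 9 lists that are not of other cell types, 184 of 199 genes had any peak. These lists thus differed from the background in peaks of any kind as well.

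In the list of Th17 effectors and regulators, 7 of 24 genes (29.2%, 12.6 to 51.1%) had a member in the locus, and 22 had any peak. Fosl2, an AP-1 factor that restrains Th17 plasticity, had 2, of 1133 bp (12.2-fold) at 1347 bp and 612 bp (6.96-fold) at 3217 bp before its start. Il21, a cytokine of Th17 and follicular helper cells, had 547 bp (11.6-fold) at 424 bp before its start and 506 bp (7.14-fold) inside the gene, 1339 bp from it. Runx1 had 2 members inside the gene, of 650 bp (11.7-fold) and 518 bp (8.27-fold), the second 2278 bp from its start. Il17a, the signature cytokine, had 1 of 554 bp (10.7-fold) at 6292 bp beyond its 3′ end, and Batf, a pioneer factor of the lineage, had 1 of 613 bp (11.2-fold) inside the gene. The member at Etv6 (547 bp, 9.47-fold) was 41 bp from its start, whereas the one in the Ikzf3 locus (645 bp, 7.83-fold) lay inside the neighbour Mien1.

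Several well known Th17 and cytokine genes had peaks but no member. The widest peak was 432 bp in the Il17f locus (5 peaks, up to 16.0-fold), 379 bp at Il23r (5 peaks) and 401 bp at Rora (18 peaks, up to 9.89-fold). It was 345 bp at Stat3 (3 peaks, up to 13.1-fold), 467 bp at Maf, 418 bp at Il2, 352 bp at Il10, 258 bp at Ccr6 and 256 bp at Irf4. Rora had 18 peaks and no member, whereas Il21 had 3 peaks of which 2 were members. Whether the number of peaks in a locus goes with a member was not tested over all genes.

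In the TGF-beta and SMAD list, 8 of 30 genes (26.7%, 12.3 to 45.9%) had a member and 28 any peak. Of the ligands and receptors, Tgfb1 had a 545 bp member (5.18-fold) 22 bp from its start, the activin receptor gene Acvr2a 717 bp (9.46-fold) at 34 bp, and the BMP receptor gene Bmpr1a 720 bp (12.9-fold) at 183 bp. Tgfbr2 had 11 peaks, the widest 354 bp. Of the signal transducers, Smad3 had 1 member of 756 bp (11.9-fold) inside the gene, 19464 bp from its start, among 16 peaks with a median width of 237 bp. Smad7, the inhibitory SMAD, had none, its widest peak being 498 bp, 2 bp short of the bound.

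The repressors and ligases of this pathway had members too. Tgif1, a homeodomain co-repressor of SMADs, had 922 bp (12.6-fold) at 571 bp from its start. Ski and Skil, co-repressors that SMAD signalling removes by degradation, had 593 bp (5.72-fold) and 610 bp (5.91-fold), the first 961 bp before a start and the second 875 bp outside an end of the gene. The Skil locus also held a wider peak of 942 bp beyond the fold bound, and its highest fold was 16.3. The ubiquitin ligase gene Smurf2 had 525 bp (7.69-fold) at 29 bp. Trim33 itself had 2 peaks, the wider of 322 bp, and no member.

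Of the NF-kB and AP-1 genes, 8 of 23 had a member in the locus (34.8%, 16.4 to 57.3%). Nfkbia, the inhibitor that NF-kB induces against itself, had 1100 bp (8.63-fold) inside the gene at 649 bp from its start, and Rel 778 bp (9.30-fold) at 131 bp. Junb, an AP-1 subunit needed for Th17 identity, had 3: 649 bp (10.2-fold) at 358 bp beyond its 3′ end, 779 bp (9.44-fold) at 1089 bp before its start and 1037 bp (5.09-fold) at 7304 bp before it. The last of these lay nearer to another protein-coding gene, at 2724 bp. Jun (616 bp, 8.19-fold) had its member 235 bp before the start and Jund (734 bp, 11.2-fold) 1262 bp from it. Bach1, a repressor gene, had 573 bp (7.96-fold) at 51 bp and Relb 518 bp (9.24-fold) at 875 bp inside an end of the gene. The member in the Ddit3 locus lay inside its neighbour Mbd6.

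In the JAK-STAT and SOCS list, 5 of 19 genes (26.3%, 9.15 to 51.2%) had a member and 17 any peak. All 5 encode negative regulators of the pathway and none a JAK or a STAT. Socs1, Socs3, Socs5 and Cish encode inhibitors that cytokine signalling induces, and Ptpn2 a phosphatase that acts on JAKs. Their members were 897 bp (10.5-fold) at Socs1, 349 bp from its start, 575 bp (4.90-fold) at Socs3, 11 bp from a start, 522 bp (5.94-fold) at Socs5 and 595 bp (6.48-fold) at Ptpn2, 43 bp from its end. Cish had 3, of 590 bp (6.65-fold) at 878 bp before its start and of 634 bp (9.34-fold) and 520 bp (5.64-fold) beyond its 3′ end. A strong wide peak lay in the locus of 1 gene of this list. The split of the list was seen in the data and was not tested.

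The list of IL-10 and inhibitory receptor genes had 4 of 16 with a member (25.0%, 7.27 to 52.4%). Bhlhe40, a repressor of Il10, had one of the widest members of all, 1536 bp with 14.2-fold enrichment, 337 bp outside an end of the gene. Bach2 had 2 inside the gene (888 bp, 10.6-fold and 765 bp, 5.66-fold). The inhibitory receptor genes Tigit and Ctla4 had 638 bp (8.27-fold) at 327 bp from a start and 539 bp (6.77-fold) at 9422 bp before the start.

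Of the genes of activation, cytokine receptors and costimulation, 6 of 23 (26.1%, 10.2 to 48.4%) had a member. Those at Il2ra (601 bp, 5.78-fold), the IL-2 receptor alpha chain, and Tnfrsf9 (533 bp, 8.48-fold), the costimulatory receptor 4-1BB, lay 6952 bp and 5715 bp before the starts. The member in the Tnfrsf9 locus was nearer to another protein-coding gene, at 4519 bp. Nfatc2 (561 bp, 10.8-fold) and Il2rb (521 bp, 8.57-fold) had theirs inside the gene, Ccr7 (527 bp, 6.87-fold) 218 bp outside an end and Il4ra (512 bp, 5.67-fold) 729 bp beyond its 3′ end. The list of T cell receptor and identity genes had 4 of 27 (14.8%, 4.19 to 33.7%), although all 27 had a peak. Among these were Cd2 (568 bp, 5.18-fold), Ets1 (529 bp, 7.57-fold) and Lck (515 bp, 7.38-fold).

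Genes that most cells use were found as well. In the chromatin and RNA list 6 of 18 genes (33.3%, 13.3 to 59.0%) had a member, the widest at the RNA helicase gene Ddx5 (1042 bp, 7.04-fold, 94 bp from a start). Polr2a, the largest subunit of RNA polymerase II, had 634 bp (9.23-fold) at 74 bp. Ywhaz (573 bp, 8.65-fold), Srsf1 (553 bp, 10.2-fold) and Ep300 (530 bp, 9.14-fold) had narrower ones. The ribosomal protein and translation list had 2 of 20 (10.0%, 1.24 to 31.7%), close to the background of 6.98%, although 18 of the 20 had a peak. Eef1a1 had 544 bp (5.91-fold) at 124 bp from its start, and the member in the Rps3 locus (602 bp, 5.18-fold) lay inside the neighbour Klhl35.

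No member lay in the loci of the marker genes of other cell types. None of 15 B cell, 15 myeloid and dendritic, 13 CD8 and NK and 19 non-haematopoietic genes had one, 0 of 62 in all. The upper limit (exact 95% binomial) was 5.78% for the 62 pooled, beside the background of 6.98%. For each list alone it was 17.65 to 24.71%, which includes the background. Narrower peaks were present in 8, 6, 5 and 3 of these loci, 22 of the 62. Any peak lay in 55.9% of all autosomal protein-coding genes, so peaks of any kind were also scarcer in these loci. The lack of members was not compared among loci with a peak alone. Across the 13 lists, 50 genes had a member, 37 of these had an annotated start, and in 21 of the 37 a member lay within 1000 bp of it.

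**Figure D5:**
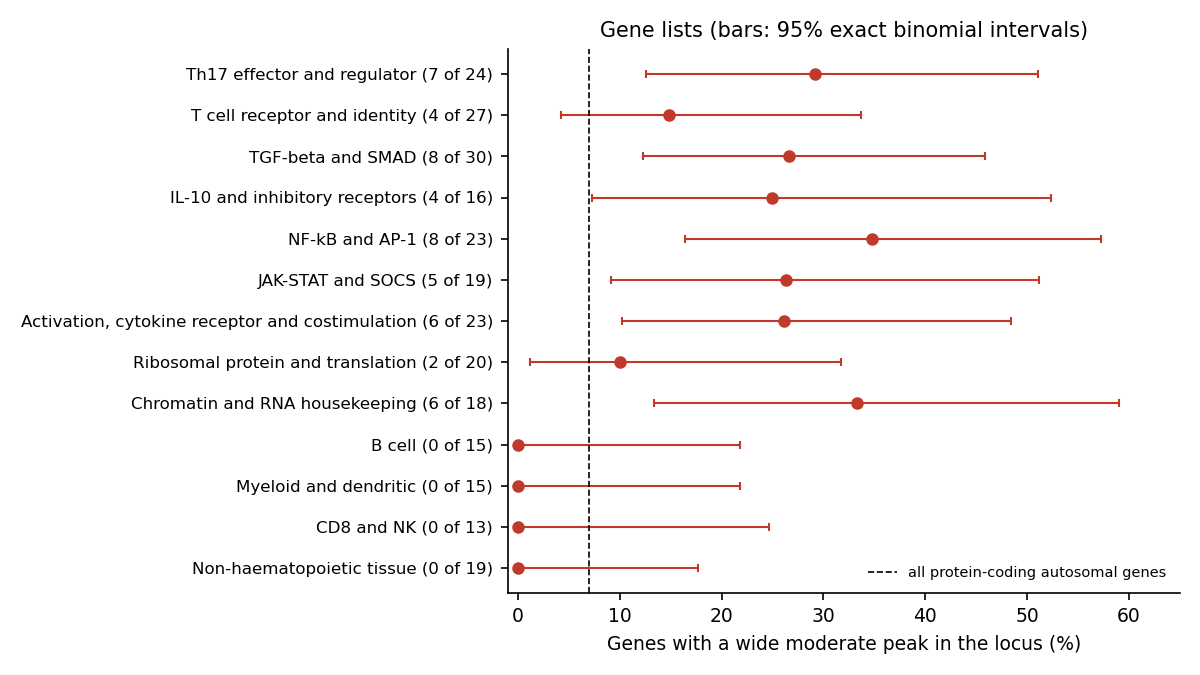
Share of genes (x axis, %) with a member in the locus for each of the 13 lists (y axis, with counts). Points are shares, lines are exact 95% binomial intervals, and the dashed line is the background of 6.98% over all autosomal protein-coding genes. The NF-kB and AP-1 list stands highest with 8 of 23, and the 4 lists of other cell types stand at 0.

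A few loci held several members. Crlf2, a receptor chain for the cytokine TSLP, had 4 between 109551081 and 109559206 on chromosome 5, of 941 bp (12.9-fold), 579 bp (6.12-fold), 571 bp (8.51-fold) and 530 bp (8.24-fold). The third lay 82 bp from its start. Il3ra, the IL-3 receptor alpha chain, had 3 of the wider ones, 1570 bp (7.50-fold), 1090 bp (14.4-fold) and 894 bp (13.1-fold), within 14345480 to 14352223 on chromosome 14. Csf2ra, the receptor chain for GM-CSF, had 1370 bp (10.8-fold) inside the gene at 1096 bp from its start. Crlf2, Il3ra and Csf2ra all encode chains of type I cytokine receptors.

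Rgs1, a brake on chemokine receptor signalling, had 4 members of 500 to 579 bp. One (7.62-fold) lay 177 bp outside the upper end of the gene, and 3 (5.02, 11.0 and 7.53-fold) lay 1095 to 5421 bp below the lower end. Rbpj, the DNA-binding partner of Notch, had 3 inside the gene, of 800 bp (6.43-fold), 771 bp (9.46-fold) and 602 bp (6.54-fold), the last 110 bp from an annotated start. The zinc transporter gene Slc39a10 also had 3, of 812 bp (9.77-fold), 709 bp (7.98-fold) and 604 bp (9.59-fold), the first 240 bp from a start. Adcy3 and AW549877 had 2 each and are named as the first by symbol among the genes with 2. In both, 1 of the 2 lay inside a neighbouring gene, Cenpo and Fbxo4.

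The widest member and one of the weakest lay in loci known for repeated copies. The first, of 3668 bp and 4.46-fold, was found at chr17:39843055-39846722, 104699 bp from the nearest protein-coding gene, Esp38. It and a second member at chr17:39847770-39848863 (1094 bp, 5.95-fold) overlapped Rn18s-rs5, annotated as a pseudogene of 18S ribosomal RNA. Their −log10 q values of 56.5 and 74.4 were high for their fold, the median of members being 20.8. Sfi1 on chromosome 11 held 52 peaks inside the gene, 4 of them members of 2.1 to 4.18-fold. All 52 had between 1.91 and 6.65-fold enrichment. The part of repeated copies in these peaks was not tested.

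The lowest members had small −log10 q values as well. The lowest of all was 2.09-fold at 10178 bp from Gm39469 and the next 2.1-fold in Sfi1, with −log10 q of 6.65 and 9.51. Then came 2.77-fold inside Wwox, 2.96-fold at Armh3 and 2.97-fold at Pafah1b1, with −log10 q of 4.44, 4.84 and 3.23. The lower quartile over all members was 13.9. The member at Armh3 lay 86 bp from a start and that at Pafah1b1 596 bp from one. The 5 highest lay elsewhere: 14.9-fold inside Nfia, 110573 bp from Nebl, 8861 bp from Tmx1, 5181 bp from Adprhl1 and 64828 bp from Rbpj. None of these 5 lay within 1000 bp of a gene end.

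Other members over 1.4 kb were at Rev3l, a DNA polymerase subunit gene (1460 bp, 12-fold, 345 bp inside an end), and inside Gm34296 (1436 bp, 7.63-fold). At the other extreme of distance, 44 members (3.29%) lay over 100 kb from any protein-coding gene, against 6.66% of the narrow peaks of like fold. The 5 most distant were 744970 bp from Myc (7.14-fold), 567726 bp from Zfp608 (14.7-fold), 409599 bp from Jarid2 (14.9-fold), 340160 bp from Cblb (8.11-fold) and 337790 bp from Rps24 (9.82-fold). Their widths were 595, 897, 776, 553 and 569 bp.

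Members overlapped few genes of small RNAs. An annotated miRNA was overlapped by 10 members (0.747%, 0.359 to 1.37%), against 0.120% of the narrow peaks of like fold and 0.113% of all autosomal peaks. Of these 10 members, 9 lay within 1000 bp of the end of a protein-coding gene, such as Mir8102 at Pip4k2b (661 bp, 7.16-fold), Mir5131 at Ddhd1 (754 bp, 8.51-fold), Mir5130 at Kctd12 (782 bp, 7.95-fold) and the pair Mir2861 and Mir3960 at Cdk9 (611 bp, 5.63-fold). A wider region has more room to overlap such a gene, and width was used by the rule. For tRNA genes there were 2 members, 1 of which (587 bp, 7.10-fold) overlapped 3 tRNA genes, n-TYgta1, n-TYgta2 and n-TAagc14, on chromosome 3. An lncRNA gene was overlapped by 218 members (16.3%), 110 of them at protein-coding gene ends, against 13.7% of the narrow peaks of like fold.

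Members did not stand in denser groups of peaks. Another peak lay within 10 kb of 783 members (58.5%, 55.8 to 61.1%), against 57.7% of all autosomal peaks and 57.6% of the narrow peaks of like fold. In the strong wide peaks this was 66.5% (58.5 to 73.8%). Another member lay within 10 kb of 82 members (6.12%). Members had 1.18 other peaks within 10 kb on average, and 5.03% of all autosomal peaks were members. Whether members stand near each other beyond that share was not tested. Over the chromosomes, members made up 4.04% (chromosome 2) to 6.65% (chromosome 5, 106 of 1595) of the peaks, with 6.02% on chromosome 12 and 5.98% on chromosome 18.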

How the data were processed

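ChIP-seq of Trim33 in Th17 cells gave 2 ChIP and 2 input libraries, and 1 list of peaks on merged replicates was used. The build mm10 and 3 programs, MACS2 2.1.1.20160309 among them, are named in the submitters' processing notes. The others are Bowtie 1.2.1.1 and Trim Galore 0.3.7. The sources used here give no settings, control or threshold for a peak. Read depth is unknown. The deposited fold enrichment is a ratio at the summit made by the authors. The deposited list also gives −log10 q at the summit. The authors' deposited score equalled the whole part of 10 times −log10 q in 100% of peaks and was not used. Width can depend on depth, fragment length and any joining of nearby signal, and merging replicates hides any difference between the ChIP libraries.

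Positions were compared with RefSeq genes and promoters of GRCm38.p6 (20665 autosomal protein-coding genes), counted from 1, with Python 3.11.15, pandas 2.3.3 and scipy 1.17.1. Intervals are exact (Clopper-Pearson, 95%) and cover counting error only. Members and lists were chosen with earlier results of these data known. Named genes are those nearest to the 10 widest members, the 5 highest, 5 lowest and 5 most distant members and the 5 widest at gene ends, the 10 with most members, the 3 with the widest member in each list and 17 fixed genes. The further list genes described, Ctla2b and the non-coding genes were named after their values were seen. Placement and motif search were checked on simulated positions and sequences. Alternatives were other bounds on width and fold, stricter peaks, other windows, loci and distances, and, chosen after seeing the data, promoters covered in full and 1 promoter a gene. A few list genes with a member are not reported here.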

Additional observations from a re-analysis of the deposited data

How the results depend on the processing

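The higher share of members than of narrow peaks of like fold at gene ends kept its direction in all 8 settings in which both were computed, with 46.8 to 59.6% against 20.8 to 31.1%. For strong wide peaks it was 19.9 to 25.3%. Alternatives moved many values beyond the counting interval. Counts of genes and shares by window or distance follow the setting by construction. The gene-end share itself depended on the chosen bounds on width and fold, as in the bins above. With 400 bp or more the gene-end share was 48.2%, gene bodies 27.9% and genes with a member 2948. With 600 bp or more these were 59.6%, 21.6% and 735, and 13.1% lay over 10 kb from genes. With fold below 10 the gene-end share was 56.3% and 14.2% lay over 10 kb away, and with no fold bound 48.9% were at gene ends. With stricter peaks 39.8% had a neighbour within 10 kb, since fewer peaks were left. Windows of 500 and 2500 bp gave 46.8% and 59.0% at gene ends and 29.0% and 19.8% in gene bodies, and 36.3% were within 250 bp of a start. Neighbours within 5 and 20 kb were found for 43.8% and 71.5%. Gene bodies alone held a member in 693 genes and loci with 50 kb in 2776.

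By list, gene bodies alone gave 3 (Th17), 2 (T cell receptor), 4 (TGF-beta), 2 (IL-10), 3 (NF-kB and AP-1), 3 (JAK-STAT), 2 (activation) and 0 (ribosomal). Loci with 50 kb gave 11 (T cell receptor), 13 (TGF-beta), 7 (IL-10), 10 (activation), 1 (B cell) and 1 (myeloid). The share of CpG-rich promoters was 90.5% with promoters covered in full, an alternative chosen after seeing the data. Of 64 values under alternatives 29 stayed within the interval, or within 1.5 times a count. No paired analysis was possible because merged replicates gave the authors' list. Leaving out a replicate was not possible for the same reason.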

Other observations

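Among the named genes, 3 with wide members, Crlf2, Il3ra and Csf2ra, encode cytokine receptor chains that lie in the pseudoautosomal region of the human sex chromosomes. In the mouse assembly they are on 3 autosomes, chromosomes 5, 14 and 19. They held 4, 3 and 1 members of 530 to 941 bp, 894 to 1570 bp and 1370 bp. This grouping was seen after the values and was not tested. All of these members but 2 had their summit inside the annotated gene: 1 at Crlf2 lay 3170 bp beyond its 3′ end and 1 at Il3ra lay 172 bp outside the annotated gene, 755 bp from the nearest annotated start of that gene.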
